A study of Mus musculus with 6 samples.

Results

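The transcription factor Nrf2, encoded by Nfe2l2, its inhibitor Keap1 and 8 of the genes classically counted among Nrf2 targets (Gclc, Gclm, Slc7a11, Gsr, Txnrd1, Srxn1, Nqo1 and Hmox1) were followed in regenerating mouse liver. The genes were taken by symbol from the deposited table of raw counts, and all 10 were present among its 16858 genes. Bulk liver RNA was sequenced from Aqp5-/- mice (3 libraries) and Aqp5+/+ mice (3 libraries), all at 72 h after removal of 70% of the liver (PHx, partial hepatectomy). The Aqp5-/- line was made by CRISPR/Cas9 in fertilized eggs, and C57BL/6 mice are named beside it. Loss of aquaporin 5, a channel for water and hydrogen peroxide, was reported in its liver and primary hepatocytes. The animals of both genotypes are described as males aged 3 months. No library was made from liver before or without PHx, so the comparison is between genotypes at a single time. Whether each library came from a separate mouse is not given in the sources used here, and p-values therefore measure the spread between libraries, which may be partly technical.

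Nrf2 is held in the cytoplasm by Keap1, a cysteine-rich sensor that hands it to a Cul3 ubiquitin ligase for degradation. When oxidants or electrophiles modify Keap1, Nrf2 accumulates, enters the nucleus, pairs with a small Maf protein and binds the antioxidant response element. Because Nrf2 is regulated mainly as a protein, the transcripts of its targets are the usual RNA readout of the pathway. Nrf2 protein was not measured by these counts. In liver these targets make and recycle glutathione, reduce thioredoxin and quinones and break down heme, and mouse liver regenerates more slowly without Nrf2.

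The core of the antioxidant response element, TGACNNNGC, was searched on both strands of RefSeq promoter windows (GRCm38.p6, 250 bases before to 50 bases after each start site). Windows were found for 7 of the 10 genes, and Hmox1, Gclc and Gsr had no window to search. Of the 7, 4 genes held a match, or 57.1%, against 13.99% of all 27025 genes with a window. By window, 4 of 9 held a match, or 44.4%, against 12.4% of all 32851 windows. Txnrd1 had 3 windows and a match in only 1, and its position below is counted from the start site of that window. Keap1, Nqo1 and Slc7a11 held no match within these letters and this window. The 4 matches are shown with 10 bases on each side, since they are the sequence feature shared by these members, and the capitals mark the core. Each is a match of letters and was not tested as a binding site in these livers.
Gclm, chr3:122245413-122245441, minus strand, position -134 from the start site: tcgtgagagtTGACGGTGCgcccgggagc
Txnrd1, chr10:82859104-82859132, minus strand, position -92: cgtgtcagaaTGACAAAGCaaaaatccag
Srxn1, chr2:152105542-152105570, minus strand, position 29: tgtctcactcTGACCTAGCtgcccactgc
Nfe2l2, chr2:75704885-75704913, minus strand, position -240: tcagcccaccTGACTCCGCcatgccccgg

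The library totals ranged from 11293358 to 15550006 counts in Aqp5-/- and from 7130831 to 13526632 counts in Aqp5+/+ livers, with the lowest total in Aqp5+/+ replicate 2. Aqp5 itself was not analysed here, so the genotype labels were not checked by the transcript of the deleted gene. The summed level of 4 Y-linked genes was 0.869 to 1.19 CPM (counts scaled to a common library size by edgeR) in Aqp5-/- and 287 to 471 CPM in Aqp5+/+ libraries, which goes against 1 sex for both groups, so genotype and sex-linked expression cannot be told apart in any comparison here. Markers of hepatocytes summed to 122800 to 127100 CPM in Aqp5-/- and 83060 to 141600 CPM in Aqp5+/+ libraries, with the lowest value in Aqp5+/+ replicate 2. Aqp5-/- replicate 3 stood apart in genes of stellate cells, the collagen-producing cells of the liver, at 2793 CPM against 369 to 607 CPM in the other 5 libraries. Most of that sum came from the collagens Col1a1, Col1a2 and Col3a1 (573, 546 and 1407 CPM), and 6 of the 8 stellate markers were highest there, while Lrat (30.1 CPM) and Reln (111 CPM) were within the range of the others. In bulk tissue, fewer cells of a type and less RNA per cell cannot be told apart.

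No member passed the test between genotypes. With edgeR's quasi-likelihood test and Benjamini-Hochberg adjustment over all 12353 tested genes, 0 of the 9 members with enough counts had an adjusted p under 0.05, against 0.332% of all genes (41 genes). An unadjusted p under 0.05 was found for 2 of the 9, Hmox1 and Nqo1, both higher in Aqp5-/-, against 8.78% of all genes. The 3 libraries of each genotype did not overlap for 3 members, higher in Aqp5-/- for Hmox1 and Nqo1 and lower for Nfe2l2, against 14.7% of all genes. DESeq2 called 1 of the 9, Hmox1, against 1.7% of all genes in its test, and limma called 0 of the 9, against 0.364%, with 2 at an unadjusted p under 0.05. Aqp5-/- was on the higher side (log2 fold change above 0, Aqp5-/- against Aqp5+/+) for 7 of the 9, with a median of 0.33 beside a median of 0.01 over all tested genes. Omitting Aqp5-/- replicate 3 gave a median of 0.20 over the members, omitting Aqp5+/+ replicate 2 gave 0.09 and omitting Aqp5+/+ replicate 3 gave 0.63.

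**Figure D1:**
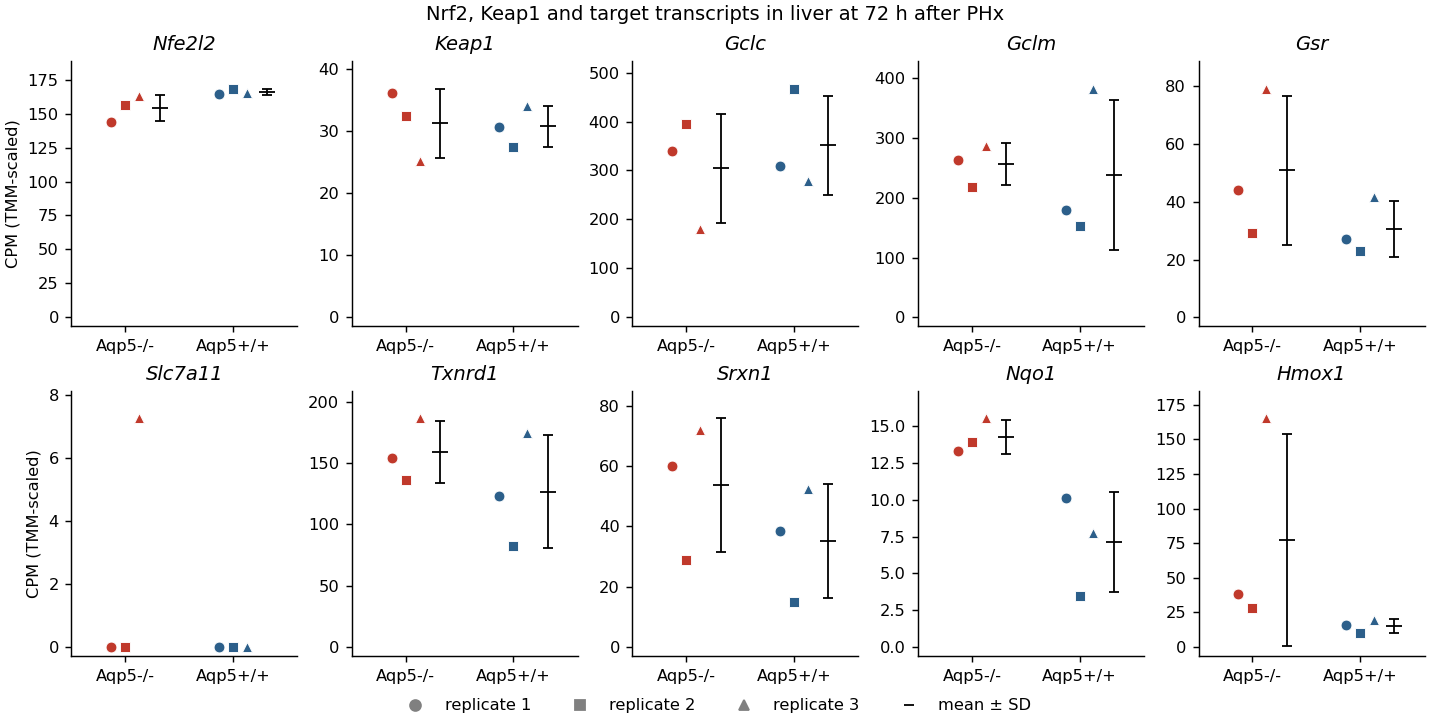
Level of each gene in CPM (vertical axes, linear, each with its own range), with Aqp5-/- libraries in red on the left and Aqp5+/+ libraries in blue on the right; black bars give mean ± SD (n = 3), left out for Slc7a11. Nqo1 and Hmox1 separate by genotype, Aqp5-/- replicate 3 is far above the rest for Hmox1 (165 CPM) and holds all the Slc7a11 reads.

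Nfe2l2, the gene of Nrf2 itself (ENSMUSG00000015839, GRCm38 chr2:75675513-75704641, minus strand), was at 144, 156 and 163 CPM in Aqp5-/- livers, against 164, 168 and 165 CPM in Aqp5+/+ livers. The genotypes did not overlap, with Aqp5-/- lower, but the nearest values, 163 and 164 CPM, were almost the same. The means were 154 ± 9.46 CPM in the Aqp5-/- group and 166 ± 2.18 CPM in the Aqp5+/+ group (SD, n = 3 per group), a fold of 0.930 with a 95% interval of 0.675 to 1.28. Its log2 fold change was -0.11 (SE 0.20) with edgeR's adjusted p = 0.88, and it was 0.05 when counts were scaled by library totals alone, a scaling that moves the median of all genes to 0.17.

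Keap1, the sensor that binds Nrf2 (ENSMUSG00000003308, chr9:21229730-21239361, minus strand), was at 36.2, 32.4 and 25.2 CPM in Aqp5-/- livers, against 30.7, 27.5 and 34.1 CPM in Aqp5+/+ livers. The genotypes overlapped throughout, and Aqp5-/- replicate 3 was the lowest library. Means of 31.3 ± 5.57 CPM in the Aqp5-/- group and 30.8 ± 3.31 CPM in the Aqp5+/+ group (SD, n = 3 per group) gave a fold of 1.02 with a 95% interval of 0.713 to 1.45 (edgeR's adjusted p = 0.98). The ratio of Keap1 to Nfe2l2 CPM was 0.251, 0.208 and 0.155 in Aqp5-/- livers, against 0.187, 0.163 and 0.206 in Aqp5+/+ livers, so that it spread more widely within Aqp5-/- than between the genotype means of 0.205 and 0.185.

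Gclc and Gclm encode the catalytic and the modifier subunit of glutamate-cysteine ligase, which carries out the rate-limiting step of glutathione synthesis. Gclc (ENSMUSG00000032350, chr9:77754535-77794485, plus strand) was at 339, 394 and 180 CPM in Aqp5-/- livers, against 308, 467 and 279 CPM in Aqp5+/+ livers. Gclm (ENSMUSG00000028124, chr3:122245557-122270732, plus strand) was at 263, 218 and 287 CPM in Aqp5-/- livers, against 180, 153 and 383 CPM in Aqp5+/+ livers. Both genes overlapped between genotypes, and within each genotype the library with the most Gclc had the least Gclm.

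For Gclc the means were 305 ± 111 CPM in the Aqp5-/- group and 352 ± 101 CPM in the Aqp5+/+ group (SD, n = 3 per group), which gave a log2 difference of -0.21 (SE 0.36, edgeR's adjusted p = 0.86). The corresponding means of Gclm were 256 ± 35.0 CPM and 239 ± 126 CPM (SD, n = 3 per group), which gave a log2 difference of 0.10 (SE 0.37, edgeR's adjusted p = 0.94). The sign of neither held: Gclc was at 0.06 without Aqp5-/- replicate 3 and at 0.05 without Aqp5+/+ replicate 2, and Gclm was at -0.07 without Aqp5+/+ replicate 1 and at -0.14 without Aqp5+/+ replicate 2. The ratio of Gclc to Gclm CPM ran from 0.628 in replicate 3 to 1.81 in replicate 2 of Aqp5-/-, and from 0.730 in replicate 3 to 3.06 in replicate 2 of Aqp5+/+, a wider spread within each genotype than between the means of 1.24 and 1.83.

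Gsr encodes glutathione reductase, which returns oxidized glutathione to its reduced form with NADPH. Gsr (ENSMUSG00000031584, chr8:33652523-33698163, plus strand) was at 44.0, 29.4 and 79.3 CPM in Aqp5-/- livers, against 27.2, 23.0 and 41.7 CPM in Aqp5+/+ livers. Aqp5-/- replicate 3 was the highest library, and the other libraries of the genotypes overlapped. Means of 50.9 ± 25.7 CPM in the Aqp5-/- group and 30.6 ± 9.81 CPM in the Aqp5+/+ group (SD, n = 3 per group) gave a log2 fold change of 0.73 (SE 0.39) with edgeR's adjusted p = 0.61, and it was 0.26 without Aqp5-/- replicate 3.

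Slc7a11, also called xCT, is the cystine transporter that brings in the precursor of the cysteine used for glutathione. Its gene (ENSMUSG00000027737, chr3:49892526-50443614, minus strand) had 0, 0 and 122 counts in Aqp5-/- livers, against 0, 0 and 0 counts in Aqp5+/+ livers. All of its reads thus came from Aqp5-/- replicate 3, where they gave 7.26 CPM. A count of 0 in all 3 Aqp5+/+ libraries together allows up to 3 counts, or 0.0972 CPM, a limit that covers counting error only. The gene failed the filter on low counts, and no fold is given because Aqp5-/- replicates 1 and 2 were at 0 as well. When it was kept by asking only for a mean of 1 CPM, edgeR gave an adjusted p = 0.56. In the same library Col1a1, a collagen of stellate cells, was at 573 CPM, against 21.2 to 70.8 CPM in the other 5 libraries, and Krt19, a keratin of bile duct cells, was at 31.2 CPM, against 0.325 to 3.39 CPM. The stellate markers Lrat and Reln were not highest in this library, and of the 6 bile duct markers 5 were, the exception being Sox9 at 15.3 CPM, against 15.63 CPM in Aqp5+/+ replicate 3. Summed markers of macrophages (1554 CPM, against 339 to 994 CPM) and of neutrophils (101 CPM, against 3.30 to 35.9 CPM) were also highest in this library. Of 9 macrophage markers 8 were highest there, while Clec4f was at its lowest, and of 10 neutrophil markers 4 were highest there. Whether any of these cells hold the Slc7a11 reads was not tested.

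Txnrd1 encodes cytosolic thioredoxin reductase, and Srxn1 encodes sulfiredoxin, which restores overoxidized peroxiredoxins. Txnrd1 (ENSMUSG00000020250, chr10:82833951-82897712, plus strand) was at 154, 136 and 187 CPM in Aqp5-/- livers, against 123, 82.1 and 174 CPM in Aqp5+/+ livers. Srxn1 (ENSMUSG00000032802, chr2:152105516-152111376, plus strand) was at 60.04, 28.9 and 71.96 CPM in Aqp5-/- livers, against 38.3, 15.02 and 52.5 CPM in Aqp5+/+ livers. In both genes and both genotypes replicate 3 was the highest and replicate 2 the lowest, and the genotypes overlapped.

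The means of Txnrd1 were 159 ± 25.5 CPM in the Aqp5-/- group and 127 ± 46.1 CPM in the Aqp5+/+ group (SD, n = 3 per group), which gave a log2 difference of 0.33 (SE 0.30, edgeR's adjusted p = 0.76). Those of Srxn1 were 53.6 ± 22.3 CPM in the Aqp5-/- group and 35.3 ± 18.9 CPM in the Aqp5+/+ group (SD, n = 3 per group), which gave a log2 difference of 0.60 (SE 0.47, edgeR's adjusted p = 0.72). Neither had an unadjusted p under 0.05 by edgeR (0.31 for Txnrd1 and 0.24 for Srxn1). Without Aqp5+/+ replicate 2, the shallowest library, the log2 fold change was 0.09 for Txnrd1 and 0.24 for Srxn1.

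Nqo1 encodes a quinone reductase that is among the genes most often used to report Nrf2 activity. Nqo1 (ENSMUSG00000003849, chr8:107388225-107403206, minus strand) was at 13.3, 13.9 and 15.5 CPM in Aqp5-/- livers, against 10.1, 3.45 and 7.73 CPM in Aqp5+/+ livers. The 3 Aqp5-/- libraries lay close together and above all Aqp5+/+ libraries. Means of 14.3 ± 1.15 CPM in the Aqp5-/- group and 7.11 ± 3.39 CPM in the Aqp5+/+ group (SD, n = 3 per group) gave a fold of 1.98 with a 95% interval of 1.07 to 3.68. Its log2 fold change was 0.99 (SE 0.39), with edgeR's unadjusted p = 0.034 and adjusted p = 0.53, so that it did not pass after adjustment. It was 0.67 without Aqp5+/+ replicate 2, in which the gene had 23 counts, and 1.33 without Aqp5+/+ replicate 1, the Aqp5+/+ library nearest to the Aqp5-/- libraries.

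Hmox1 encodes heme oxygenase 1, which breaks heme down to biliverdin, iron and carbon monoxide and is abundant in macrophages that clear red cells. Hmox1 (ENSMUSG00000005413, chr8:75093621-75100589, plus strand) was at 38.0, 27.9 and 165 CPM in Aqp5-/- livers, against 16.0, 9.91 and 19.4 CPM in Aqp5+/+ livers. All 3 Aqp5-/- libraries were above all Aqp5+/+ libraries, and Aqp5-/- replicate 3, with 2778 counts, was several times higher than any other. The means were 77.1 ± 76.6 CPM in the Aqp5-/- group and 15.1 ± 4.80 CPM in the Aqp5+/+ group (SD, n = 3 per group), a fold of 5.08 with a 95% interval of 1.81 to 14.3.

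For Hmox1 the tools differed. Its log2 fold change was 2.35 (SE 0.65) with edgeR's unadjusted p = 0.0064 and adjusted p = 0.33, the adjusted p was 0.43 by limma, and DESeq2 called it with an adjusted p = 0.0060. Without Aqp5-/- replicate 3 the log2 fold change was 1.11 with edgeR's adjusted p = 0.48, so that the remaining libraries still stood apart by genotype but the size of the difference rested largely on that library.

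**Figure D2:**
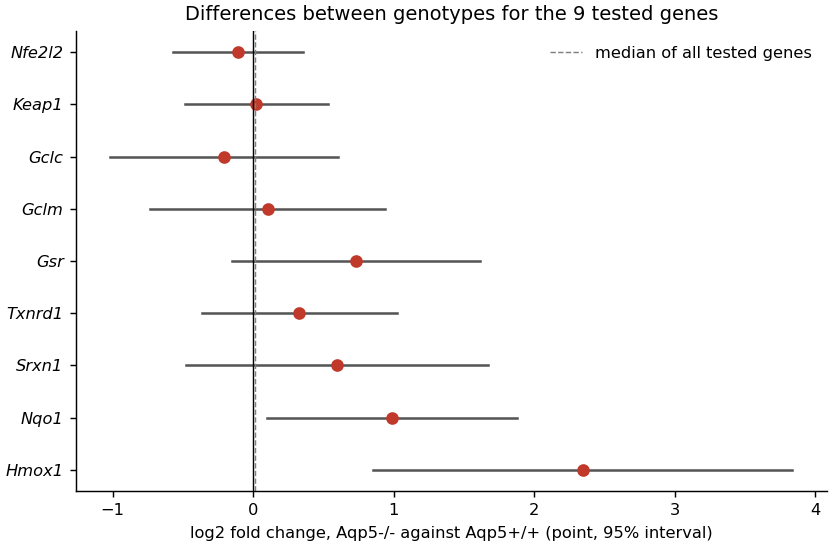
Log2 fold change of Aqp5-/- against Aqp5+/+ (horizontal axis) with its 95% interval from edgeR for the 9 tested genes; the dashed line is the median of all tested genes (0.01). Only the intervals of Nqo1 and Hmox1 lie wholly above 0, before adjustment for the number of genes tested.

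Macrophage genes were higher in the same genotype as Hmox1 and Nqo1, without passing the test. Of 10 markers of Kupffer cells, the resident macrophages of the liver, and other macrophages, 9 were in the table and 8 were tested. Of these 8, 7 were higher in all Aqp5-/- than in all Aqp5+/+ libraries, against 6.93% of all genes, with a median log2 fold change of 1.43. edgeR called 0 of the 8, against 0.332% of all genes. The markers summed to 994, 711 and 1554 CPM in Aqp5-/- livers, against 575, 339 and 370 CPM in Aqp5+/+ livers, and their order over the libraries was that of Hmox1 within Aqp5-/- only and that of Nqo1 within Aqp5+/+ only. Marco, a scavenger receptor of macrophages, was at 186, 125 and 511 CPM in Aqp5-/- livers, against 119, 34.1 and 39.4 CPM in Aqp5+/+ livers. Clec4f, which marks Kupffer cells in mice, was at 247, 184 and 97.9 CPM in Aqp5-/- livers, against 141, 125 and 101 CPM in Aqp5+/+ livers, and was lowest of all in Aqp5-/- replicate 3. Csf1r, the receptor for colony-stimulating factor 1, was below 1 CPM in every library and at 0 in Aqp5+/+ replicate 2. Markers of neutrophils summed to 30.0, 35.9 and 101 CPM in Aqp5-/- livers, against 8.55, 3.30 and 23.9 CPM in Aqp5+/+ livers. Of the 6 neutrophil markers tested, with a median log2 fold change of 2.60, 3 were higher in all Aqp5-/- libraries, against 6.93% of all genes. Among these 6, edgeR called 1, against 0.332% of all genes. It was Ngp, a granule protein at a low level, with 3.16, 2.26 and 2.98 CPM in Aqp5-/- livers, against 0, 0 and 0.0814 CPM in Aqp5+/+ livers (edgeR's adjusted p = 0.048). The part of these cells in the Hmox1 and Nqo1 differences was not tested.

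Most of the target genes were high and low in the same libraries. Of the 9 tested, 6 (Gclm, Gsr, Txnrd1, Srxn1, Nqo1 and Hmox1) had their lowest value of all 6 libraries in Aqp5+/+ replicate 2, and 5 (Gsr, Txnrd1, Srxn1, Nqo1 and Hmox1) had their highest in Aqp5-/- replicate 3. Gclc went the other way, lowest in Aqp5-/- replicate 3 and highest in Aqp5+/+ replicate 2, Keap1 was also lowest in Aqp5-/- replicate 3, and Nfe2l2 was also highest in Aqp5+/+ replicate 2. Measured as log2(CPM + 0.5) against the Aqp5+/+ mean, the median member stood at 0.35, 0.08 and 0.62 in Aqp5-/- replicates 1, 2 and 3, against 0.00, -0.52 and 0.40 in Aqp5+/+ replicates 1, 2 and 3. The genotypes therefore overlapped in this measure, and Aqp5+/+ replicate 3 stood above 2 of the 3 Aqp5-/- libraries.

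**Figure D3:**
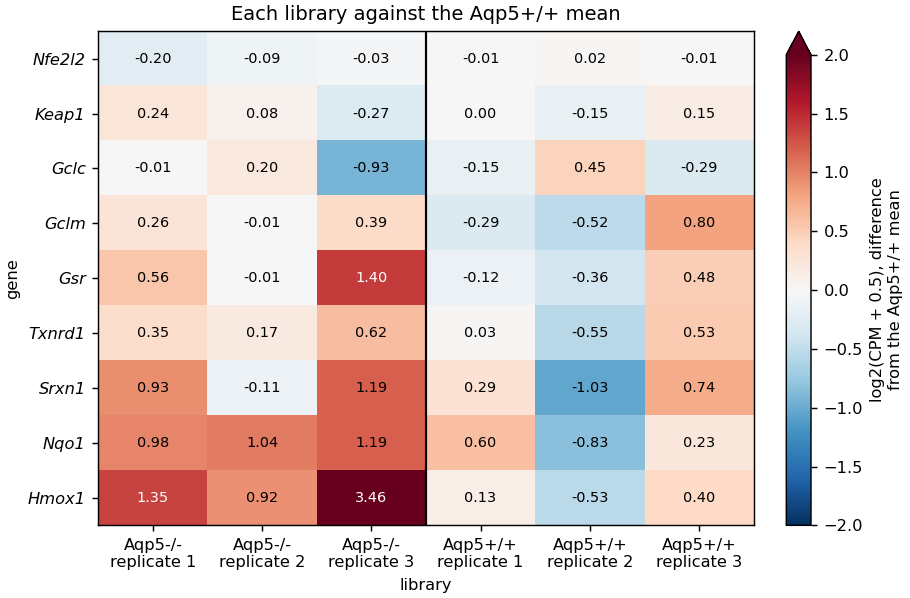
Log2(CPM + 0.5) of each tested gene (rows) in each library (columns, Aqp5-/- left of the line and Aqp5+/+ right of it), as the difference from the Aqp5+/+ mean of that gene; the colour scale ends at 2 and the printed value goes beyond it for Hmox1 in Aqp5-/- replicate 3 (3.46). Most targets are low in Aqp5+/+ replicate 2 and high in the replicate 3 column of both genotypes, while Nfe2l2 stays between -0.20 and 0.02.

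Leaving out both Aqp5-/- replicate 3 and Aqp5+/+ replicate 2, a choice made after seeing these values, left a median log2 fold change of 0.08 over the 9 members and 0 calls by edgeR. Hmox1 was then at 0.90 (unadjusted p = 0.0068, adjusted p = 0.27 by edgeR) and Nqo1 at 0.61 (unadjusted p = 0.088). Gsr was at 0.09, Txnrd1 at -0.04, Srxn1 at -0.03, Gclm at -0.23 and Gclc at 0.32. The direction of Hmox1, Nqo1 and Gsr was thus kept in the 4 remaining libraries, as was that of Keap1 (0.08) and Nfe2l2 (-0.135). That of Txnrd1, Srxn1, Gclm and Gclc was not kept.

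**Figure D4:**
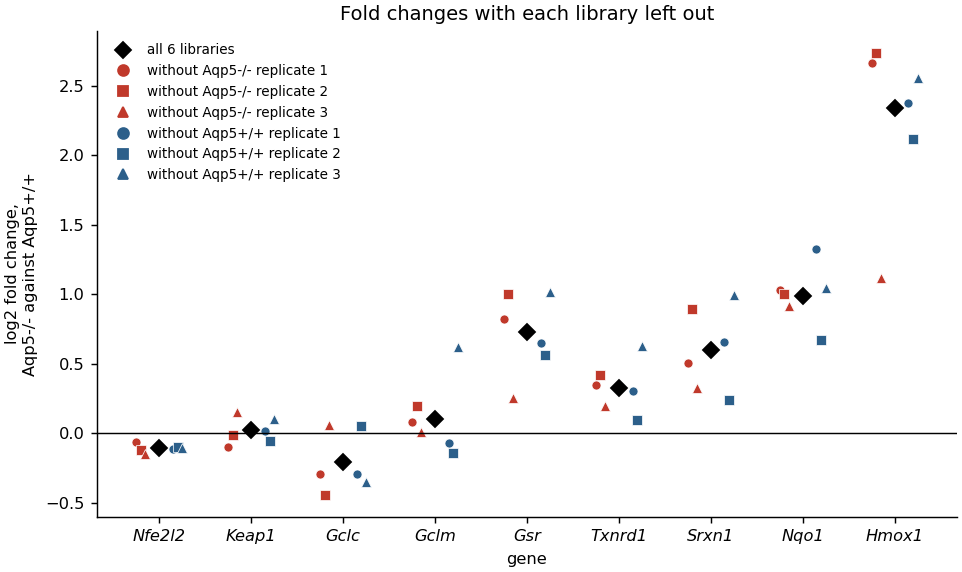
Log2 fold change of Aqp5-/- against Aqp5+/+ (vertical axis) for each tested gene with all 6 libraries (black diamonds) and with each library left out in turn (red for Aqp5-/-, blue for Aqp5+/+, shape for the replicate). Hmox1 drops to 1.11 without Aqp5-/- replicate 3, and Gclc, Gclm and Keap1 fall on both sides of 0.

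Set per kilobase of annotated exon so that genes can be compared, the level was highest for Gclc in both genotypes, at 80.9 ± 29.5 CPM per kb in Aqp5-/- and 93.4 ± 26.9 CPM per kb in Aqp5+/+ livers (SD, n = 3 per group). In Aqp5-/- livers it was followed by Hmox1 (44.0 ± 43.8 CPM per kb, overlapping with Gclc), Gclm (40.7 ± 5.57) and Nfe2l2 (40.7 ± 2.49 CPM per kb), whose libraries overlapped. Next came Txnrd1 (22.4 ± 3.60), Srxn1 (19.0 ± 7.89) and Gsr (18.5 ± 9.31 CPM per kb), again overlapping, and then Nqo1 (9.18 ± 0.742) and Keap1 (6.67 ± 1.19 CPM per kb), each apart from its neighbours. In Aqp5+/+ livers the order after Gclc was Nfe2l2 (43.7 ± 0.573), Gclm (37.9 ± 19.98), Txnrd1 (17.9 ± 6.51), Srxn1 (12.5 ± 6.71), Gsr (11.1 ± 3.56), Hmox1 (8.62 ± 2.74), Keap1 (6.55 ± 0.705) and Nqo1 (4.58 ± 2.18 CPM per kb), and each of these overlapped with the next. Hmox1 was thus second in Aqp5-/- and seventh in Aqp5+/+ livers by mean level, with Aqp5-/- replicate 3 setting its place.

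A wider list of 58 genes around Nrf2 gave the same count of calls. Of these, 57 were in the table and 54 were tested. Of the 54, edgeR called 0, against 0.332% of all genes. Its unadjusted p was under 0.05 for 9 (3 higher and 6 lower in Aqp5-/-), against 8.78% of all genes. DESeq2 called 4 of the 56 to which it gave an adjusted p, against 1.7% of all genes in its test. These were Cbr1, higher, and Gstp1, Aox1 and Abcg2, lower in Aqp5-/-. By limma 0 of the 54 were called, against 0.364% of all genes, with 9 at an unadjusted p under 0.05. The libraries of the genotypes did not overlap for 10 of the 54, 4 higher and 6 lower, against 14.7% of all genes. The median log2 fold change was 0.04, with 31 genes above 0 and 23 below it.

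Cul3, Bach1 and Sqstm1, which act around Keap1 and Nrf2, overlapped between genotypes. Cul3, the scaffold of the ligase that Keap1 serves, was at 78.3, 75.5 and 103 CPM in Aqp5-/- livers, against 73.3, 87.0 and 79.5 CPM in Aqp5+/+ livers. Bach1, a repressor that competes for the antioxidant response element, was at 90.6, 86.1 and 87.8 CPM in Aqp5-/- livers, against 94.3, 77.2 and 100 CPM in Aqp5+/+ livers. Sqstm1, the autophagy receptor p62 that can bind Keap1, was at 257, 250 and 296 CPM in Aqp5-/- livers, against 245, 254 and 298 CPM in Aqp5+/+ livers. Their log2 fold changes were 0.10, -0.04 and 0.01, with edgeR's adjusted p between 0.89 and 0.99. Of the 14 regulators in the list, 3 did not overlap between genotypes, against 14.7% of all genes. These were Maff and Mafg, higher, and Btrc, a part of another ligase that can degrade Nrf2, lower in Aqp5-/-. Btrc had a log2 fold change of -0.91 with edgeR's adjusted p = 0.38.

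The small Maf genes, Mafk, Mafg and Maff, encode the DNA-binding partners of Nrf2. Mafk was at 10.7, 7.56 and 22.1 CPM in Aqp5-/- livers, against 13.9, 6.76 and 18.3 CPM in Aqp5+/+ livers. It overlapped between genotypes (log2 fold change 0.05, edgeR's adjusted p = 0.98). Mafg was at 87.7, 86.8 and 93.9 CPM in Aqp5-/- livers, against 62.4, 85.4 and 74.0 CPM in Aqp5+/+ livers, just without overlap (log2 fold change 0.28, edgeR's adjusted p = 0.71). Maff was at 3.33, 3.56 and 7.08 CPM in Aqp5-/- livers, against 1.26, 0.601 and 1.38 CPM in Aqp5+/+ livers. Among the 54 tested genes this was the highest fold change, at 2.07 (SE 0.56) on the log2 scale, but edgeR's adjusted p was 0.32. The 3 genes of the list below the count filter, Cbr3, Ggt1 and Gpx2, had larger fitted values when no filter was used (2.92, 3.34 and 4.19), from 0 to 42 counts a library and with edgeR's adjusted p between 0.55 and 0.65. For Gpx2 the value rested on Aqp5-/- replicate 3 alone, with 0, 0 and 42 counts in Aqp5-/- livers, against 0, 1 and 0 counts in Aqp5+/+ livers. Mafg and Maff both hold the core motif in their promoter windows, as does G6pdx of the next group. All of these were higher in all Aqp5-/- libraries. The motif was also held by Mafk and other genes of the list that overlapped between genotypes, with log2 fold changes from -0.75 (Abcc2) to 0.66 (Abcc4). Whether the motif goes with the fold change was not tested. The matches of Maff, Mafg and G6pdx are printed for comparison with the members above, with the core in capitals.
Maff, chr15:79346499-79346527, plus strand, position -112: gggcgtctcaTGACTCTGCcactggaaag
Mafg, chr11:120633751-120633779, plus strand, position -222: ctcgccgggtTGACCGTGCtcctgcagag
G6pdx, chrX:74428919-74428947, plus strand, position -57: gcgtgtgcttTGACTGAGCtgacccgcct

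Over the wider list, 14 of the 52 genes with a window held the motif, or 26.9%, against 13.99% of all genes with a window. G6pdx, which encodes the first enzyme of the pentose phosphate pathway and a source of NADPH, was at 12.5, 9.30 and 21.5 CPM in Aqp5-/- livers, against 6.79, 2.85 and 5.29 CPM in Aqp5+/+ livers. All Aqp5-/- libraries lay above all Aqp5+/+ libraries, at a log2 fold change of 1.52 (SE 0.44) with edgeR's adjusted p = 0.35. Its group of 6 NADPH-supplying genes had 4 above 0 and 2 below it, with a median of 0.21.

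Among the conjugating and reducing enzymes the direction was mixed. Of 15 tested, 4 had a log2 fold change above 0 and 11 below it, with a median of -0.28. Of the 15, edgeR called 0, against 0.332% of all genes. Cbr1, a carbonyl reductase, was at 89.1, 90.5 and 128 CPM in Aqp5-/- livers, against 36.7, 30.5 and 53.6 CPM in Aqp5+/+ livers, without overlap (log2 fold change 1.34, SE 0.28). Its adjusted p was 0.17 by edgeR and 0.0034 by DESeq2.

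Gstp1, a glutathione S-transferase, was at 223, 151 and 170 CPM in Aqp5-/- livers, against 763, 380 and 572 CPM in Aqp5+/+ livers. Among the tested genes of the wider list this was the lowest fold change, at -1.66 (SE 0.33) on the log2 scale. Its adjusted p was 0.15 by edgeR and 8.4e-05 by DESeq2. Reads of Gstp1 may be shared with its near-identical neighbours, and its value is uncertain for that reason. In mice Gstp1 is also more abundant in male than in female liver, and the Y-linked values given above separate the same libraries. The part of sex-linked expression in this difference, and in those of Aox1 and Abcg2 below, cannot be told apart from that of genotype.

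Aox1, an aldehyde oxidase, was at 202, 183 and 164 CPM in Aqp5-/- livers, against 487, 448 and 287 CPM in Aqp5+/+ livers. Its log2 fold change of -1.15 (SE 0.28) had an adjusted p = 0.26 by edgeR and 0.0072 by DESeq2. Abcg2, an efflux pump in the group of exporters, was at 58.8, 64.8 and 60.5 CPM in Aqp5-/- livers, against 139, 112 and 150 CPM in Aqp5+/+ livers. The 3 Aqp5-/- libraries were close together and well below all Aqp5+/+ libraries, at a log2 fold change of -1.12 (SE 0.21), with an adjusted p = 0.12 by edgeR and 0.00098 by DESeq2. Without Aqp5-/- replicate 3 and Aqp5+/+ replicate 2 together, the choice made after seeing the values, edgeR called 0.816% of all genes (101 of 12380) and 2 of the wider list, Gstp1 and Abcg2, both lower in Aqp5-/-, at adjusted p values of 0.013 and 0.028.

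All 6 tested genes of the glutathione and thioredoxin group other than the members had a log2 fold change above 0, between 0.03 and 0.57 with a median of 0.24. None of them had an unadjusted p under 0.05 by edgeR, against 8.78% of all genes. The shared direction was not kept without Aqp5+/+ replicate 2. Prdx1 was then at -0.23, Prdx6 at -0.24 and Txn1 at -0.02, while Gss was at 0.09, Gpx4 at 0.55 and Glrx at 0.39. The 5 exporters had a median of -0.48, and Abcg2 was the only one without overlap, against 14.7% of all genes. The 3 tested genes of iron and heme metabolism had a median of 0.03 and all overlapped. The 5 other targets had a median of 0.14, and 1 of them did not overlap between genotypes, against 14.7% of all genes. It was Osgin1, an oxidative stress-induced growth inhibitor, lower in all Aqp5-/- than in all Aqp5+/+ libraries, at -0.97 with edgeR's adjusted p = 0.47.

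**Figure D5:**
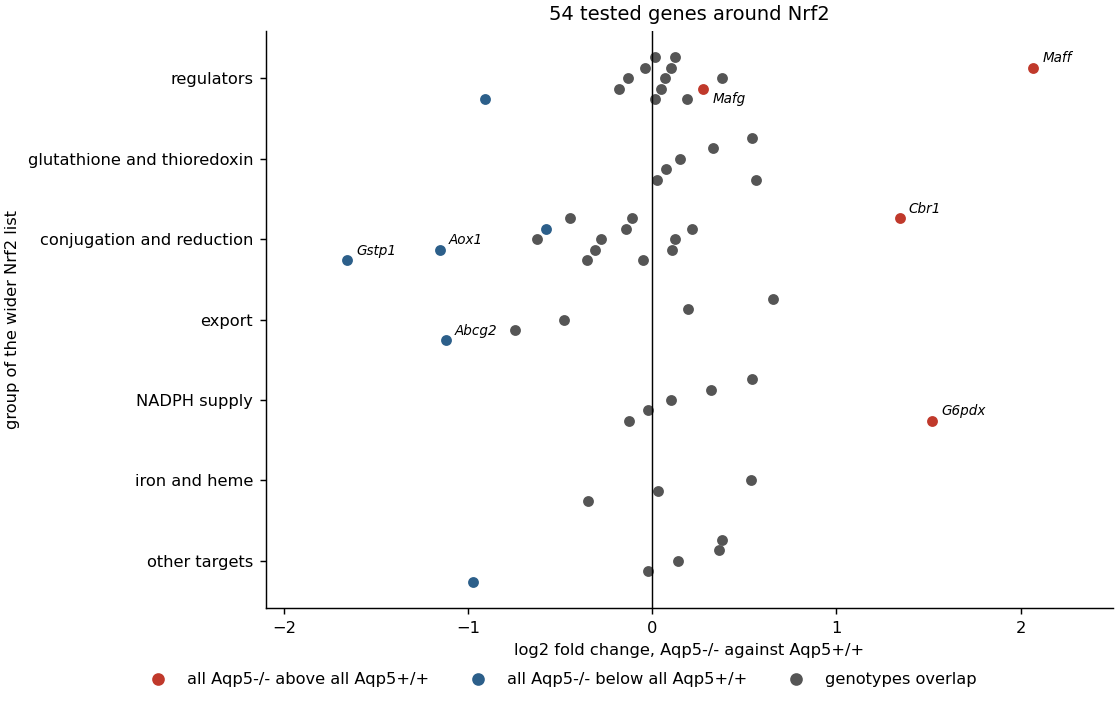
Log2 fold change of Aqp5-/- against Aqp5+/+ (horizontal axis) for the 54 tested genes of the wider list, by group (vertical axis; height within a group has no meaning); red points have all Aqp5-/- above all Aqp5+/+ libraries (4 genes), blue points all below (6 genes), and grey points overlap. The list spreads from -1.66 for Gstp1 to 2.07 for Maff around a median of 0.04.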

How the data were processed

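Reads were trimmed with cutadapt 1.9.3 and aligned with HISAT2 2.0.4 to mm10 according to the submitters' processing notes. The deposited values used are raw counts per gene, made by the authors with HTSeq. The annotation release and strand setting are not given in the sources used here. The 6 columns of values normalized by the authors were not used. The 10 members and the gene lists were chosen with earlier results of these data known.

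Genes were kept by filterByExpr of edgeR 4.0.16 (minimum count 10, minimum total 15), which left 12353, and were scaled by TMM. Genotypes were compared in R 4.3.3 by edgeR's quasi-likelihood test with robust estimation, 2-sided and without covariates, at an adjusted p under 0.05. The code was tested on simulated data. Intervals are at 95% from the same fit. Gene positions and exon lengths are from GENCODE vM21 (GRCm38), where 16666 genes of the table were found. Promoters are from RefSeq.

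Named genes are all 10 members and, of the wider list, any called gene, the 3 highest and 3 lowest log2 fold changes, and Bach1, Cul3, Mafg and Sqstm1. Btrc, Osgin1, Cbr3, Ggt1, Gpx2, Mafk, Abcc2, Abcc4, Prdx1, Prdx6, Txn1, Gss, Gpx4, Glrx and the single marker genes were named after their values were seen. Alternatives were DESeq2 1.42.0, limma 3.58.1 with a trend, a block for replicate number, scaling by RLE or by library totals alone, a filter at a mean of 1 CPM or none, and each library left out in turn.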

Additional observations from a re-analysis of the deposited data

How the results depend on the processing

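edgeR called 0 members, and 0 of the wider list, with the replicate block, with scaling by RLE or by library totals alone, with a filter at a mean of 1 CPM or none, and with each library left out, and limma also called 0. DESeq2 called 1 member, Hmox1 (log2 fold change 2.35), 4 of the wider list and 232 of all genes, against 41 by edgeR. Leaving out each library gave 4 to 45 called genes, with 26, 4 and 45 when Aqp5-/- replicates 1, 2 and 3 were omitted and 4, 17 and 16 when Aqp5+/+ replicates 1, 2 and 3 were. Leaving out both Aqp5-/- replicate 3 and Aqp5+/+ replicate 2, chosen after seeing the data, gave 101 called genes, 2 of them in the wider list. There Gclc was at 0.32, Gclm at -0.23, Srxn1 at -0.030 and Txnrd1 at -0.036.

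Over the single libraries left out, the members' median ran from 0.09 to 0.63, Gclc ran from -0.44 to 0.06, Gclm from -0.14 to 0.62, Keap1 from -0.10 to 0.15, Gsr from 0.26 to 1.02, Txnrd1 from 0.09 to 0.63, Srxn1 from 0.24 to 1.00, Nqo1 from 0.67 to 1.33 and Hmox1 from 1.11 to 2.74. Nfe2l2 reversed to 0.054 with library totals alone. The causes of these moves were not tested.

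Samples with the same replicate number did not deviate together throughout (correlations across genes of -0.06, 0.23 and 0.15 for numbers 1, 2 and 3), and not every library correlated best with its own number, so the numbers were not taken to pair the libraries. With the replicate block edgeR called 39 genes and 0 members, with a median of 0.38 over the members and an adjusted p = 0.22 for Hmox1. In that fit edgeR's unadjusted p was 0.011 for Srxn1 and 0.014 for Gsr, against 0.24 and 0.092 without the block. Their adjusted p was 0.28 each with the block, and Txnrd1 had an unadjusted p of 0.11 there. The fewest counts of any tested member in a library were the 23 of Nqo1 in Aqp5+/+ replicate 2.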
